A study of Mus musculus with 16 samples.

Results

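The mitosis genes are 54 mouse genes whose products drive a cell from late G2 through chromosome segregation and division. They were chosen by name from a list, with earlier results of these data known. All 54 were found in the deposited tables, 53 under the listed symbol and 1 under an older symbol (Sgo1, listed as Sgol1), out of 53342 genes in the tables. All 54 passed the filter on low counts and were among the 16482 genes tested. They were placed in 9 groups by role: 7 genes of the CDK1 engine that starts mitosis, 3 other mitotic kinases, 9 genes of the spindle checkpoint and of anaphase control, 4 of the chromosomal passenger complex, 6 of the centromere and kinetochore, 8 kinesin motors, 5 other spindle assembly genes, 4 cytokinesis genes and 8 genes of chromosome structure.

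RNA was sequenced from LSK cells, the bone marrow fraction without lineage markers and with Sca1 and c-Kit on the surface, which holds blood stem cells and early progenitors. Both genotypes were C57BL/6J mice of 8 to 14 weeks. The 4 groups were Gata2 +9.5(Ets)-/- mice given 250 mg/kg 5-fluorouracil (mutant 5-FU, n = 3), WT mice given that dose (WT 5-FU, n = 3), Gata2 +9.5(Ets)-/- mice given PBS (mutant PBS, n = 5) and WT mice given PBS (WT PBS, n = 5), all taken 10 days after injection. The mutation alters an Ets motif in an enhancer within an intron of Gata2, so the Gata2 coding sequence is intact and its mRNA does not check the genotype. Sorting used B220, CD3, CD4, CD5 and CD8 as the lineage markers and gave 3000 to 10000 cells per replicate. The labels do not say that replicates are separate mice, so p-values measure the spread between these samples, which may be technical.

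In a dividing cell, B-type cyclins bind and switch on CDK1, the kinase that starts chromosome condensation and spindle assembly. The spindle checkpoint then holds the anaphase-promoting complex in check until every kinetochore is attached. The genes are switched on together late in the cell cycle, largely through a promoter element named CHR (core TTTGAA or TTCGAA) and through CCAAT boxes, which the DREAM and MuvB complexes and NF-Y are known to use. 5-FU blocks thymidylate synthesis and kills cycling blood cells, after which LSK cells divide to rebuild the marrow.

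The promoters of 5 members are shown because these genes hold the ends of the results below: Ccnb2, Cdc25b and Kif15 had the smallest p-values for the 5-FU response in WT, Plk1 is a kinase among the representatives, and Pttg1 had the most negative fold change. Each runs from 250 bases before to 50 bases after the start of transcription, 5′ to 3′ on the gene's strand, from RefSeq (GRCm38.p6), and capitals mark CHR cores (TTTGAA or TTCGAA) and CCAAT boxes (CCAAT) on either strand. The windows lie at chr9:70421505-70421804, minus strand, for Ccnb2, at chr2:131186698-131186997, plus strand, for Cdc25b, at chr9:122950831-122951130, plus strand, for Kif15, at chr7:122159185-122159484, plus strand, for Plk1 and at chr11:43425932-43426231, minus strand, for Pttg1.
Ccnb2: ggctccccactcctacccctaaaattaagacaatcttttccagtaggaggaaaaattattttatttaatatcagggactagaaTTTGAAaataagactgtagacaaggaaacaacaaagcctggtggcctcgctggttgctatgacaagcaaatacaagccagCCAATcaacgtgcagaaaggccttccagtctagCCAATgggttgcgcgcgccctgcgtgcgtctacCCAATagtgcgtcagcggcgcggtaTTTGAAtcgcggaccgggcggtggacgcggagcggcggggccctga
Cdc25b: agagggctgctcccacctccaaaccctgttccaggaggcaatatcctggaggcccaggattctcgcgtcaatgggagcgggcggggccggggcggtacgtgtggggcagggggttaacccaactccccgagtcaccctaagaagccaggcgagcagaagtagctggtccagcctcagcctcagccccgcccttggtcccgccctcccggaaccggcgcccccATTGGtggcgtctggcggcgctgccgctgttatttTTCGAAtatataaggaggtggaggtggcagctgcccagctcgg
Kif15: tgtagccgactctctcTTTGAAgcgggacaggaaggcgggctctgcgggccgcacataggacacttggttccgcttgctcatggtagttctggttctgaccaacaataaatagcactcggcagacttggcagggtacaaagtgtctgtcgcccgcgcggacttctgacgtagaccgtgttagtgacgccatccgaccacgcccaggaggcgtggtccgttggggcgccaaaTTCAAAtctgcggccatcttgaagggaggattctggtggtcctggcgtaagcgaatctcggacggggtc
Plk1: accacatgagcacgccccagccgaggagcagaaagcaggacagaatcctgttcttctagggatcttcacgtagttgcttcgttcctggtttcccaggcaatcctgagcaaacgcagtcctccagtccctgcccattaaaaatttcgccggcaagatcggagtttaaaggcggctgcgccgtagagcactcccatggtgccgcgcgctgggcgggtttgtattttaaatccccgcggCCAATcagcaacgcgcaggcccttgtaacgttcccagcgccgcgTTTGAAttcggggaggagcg
Pttg1: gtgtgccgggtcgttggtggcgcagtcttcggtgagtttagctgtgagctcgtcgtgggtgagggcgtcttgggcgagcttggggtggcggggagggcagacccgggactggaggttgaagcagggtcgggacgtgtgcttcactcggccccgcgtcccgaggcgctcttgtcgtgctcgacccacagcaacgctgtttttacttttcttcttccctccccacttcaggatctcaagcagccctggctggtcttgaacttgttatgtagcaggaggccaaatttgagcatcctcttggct
Ccnb2 held TTTGAA cores at bases -167 and 4 from the start, with 3 CCAAT boxes between them. Cdc25b held a TTCGAA core at base 7 with a CCAAT box at base -28, and Plk1 a TTTGAA core at base 30 with a CCAAT box at base -14. Kif15 held 2 TTTGAA matches, at bases -234 and -19, and no CCAAT box in this window. The window of Pttg1 held no match to the 3 motifs, but its RefSeq start lies 270 bases downstream of the 5′ end of the gene in the GENCODE annotation. That window lies wholly inside the annotated gene, so the bases upstream of the annotated 5′ end were not searched.

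Promoter sequences were matched for 46 members, which have 49 promoters in the table. TTTGAA occurred on either strand in 37 of the 49 (75.5%), against 17.9% of the 32851 mouse promoters of the same length. TTCGAA occurred in 5 of the 49 (10.2%), against 1.56% of all promoters, and CCAAT in 38 (77.6%), against 37.4%. A core of either spelling together with a CCAAT box occurred in 71.4% of member promoters and 7.52% of all promoters. TTTGAA was present in 77.8% of the 27 promoters of members that rose with 5-FU in WT cells. It was present in 72.7% of the 22 promoters of those that did not pass the test. In the same order, TTCGAA was present in 18.5% and 0%, either core in 88.9% and 72.7%, and CCAAT in 85.2% and 68.2%. No test was made between the 2 sets. These matches describe letters and not bound sites.

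**Figure D1:**
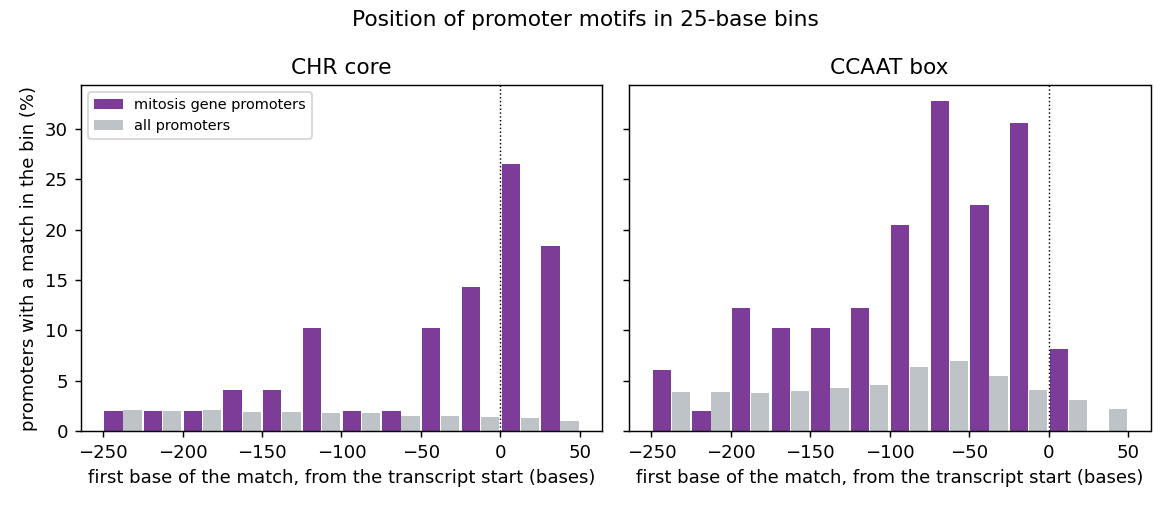
Percent of promoters with a match that begins in each 25-base bin, counted from the start of transcription, for 49 promoters of mitosis genes and for all 32851 promoters. CHR cores (TTTGAA, left) of the mitosis genes were most frequent in the first 25 bases after the start, with a match in 26.5% of their promoters, and CCAAT boxes (right) lay mostly upstream of it.

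Library totals ran from 19.37 to 28.88 in units of 1000000 counts. Immunoglobulin genes, products of B and plasma cells, took 5.689 to 26.57% of the counts in mutant 5-FU libraries, 0.03922 to 0.3324% in WT 5-FU, 3.668 to 50.17% in mutant PBS and 6.373 to 44.24% in WT PBS. The labels also carry codes of unstated meaning, written with a leading zero in some libraries and without one in others. Replicates 1 to 3 of both PBS groups and all mutant 5-FU libraries have the zero, and all WT 5-FU libraries lack it. After 5-FU, code writing and genotype therefore cannot be told apart. The gate's own genes were present in every library: Kit ran from 121 to 208 CPM (counts per 1000000) in mutant 5-FU, 254 to 572 in WT 5-FU, 95.5 to 332 in mutant PBS and 111 to 471 CPM in WT PBS. Ly6a, which encodes Sca1, ran from 467 to 728 CPM in mutant 5-FU, 114 to 300 in WT 5-FU, 157 to 3510 in mutant PBS and 185 to 3790 CPM in WT PBS. In both PBS groups Ly6a was highest in replicate 3, which held the largest immunoglobulin share of its group. It was lowest in replicate 5, which held the smallest. Whether other cells contributed to the level of Ly6a was not tested.

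Taken over the 54 genes, the median level of a library was 43.4, 95.9 and 99.3 CPM in mutant 5-FU replicates 1 to 3. It was 98.6, 119 and 93.1 CPM in WT 5-FU. In PBS it was 55.6, 58.8, 26.7, 78.0 and 71.4 CPM in mutant and 55.9, 43.3, 36.5, 59.8 and 61.9 CPM in WT replicates 1 to 5. The group means were 79.5 ± 31.3 CPM in mutant 5-FU, 104 ± 13.6 in WT 5-FU, 58.1 ± 19.8 in mutant PBS and 51.5 ± 11.1 in WT PBS (SD, n = 3, 3, 5 and 5). All 3 WT 5-FU libraries stood above all PBS libraries. The mutant 5-FU libraries fell apart: replicates 2 and 3 stood as high as the WT 5-FU libraries 1 and 3, and replicate 1 stood among the PBS libraries.

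**Figure D2:**
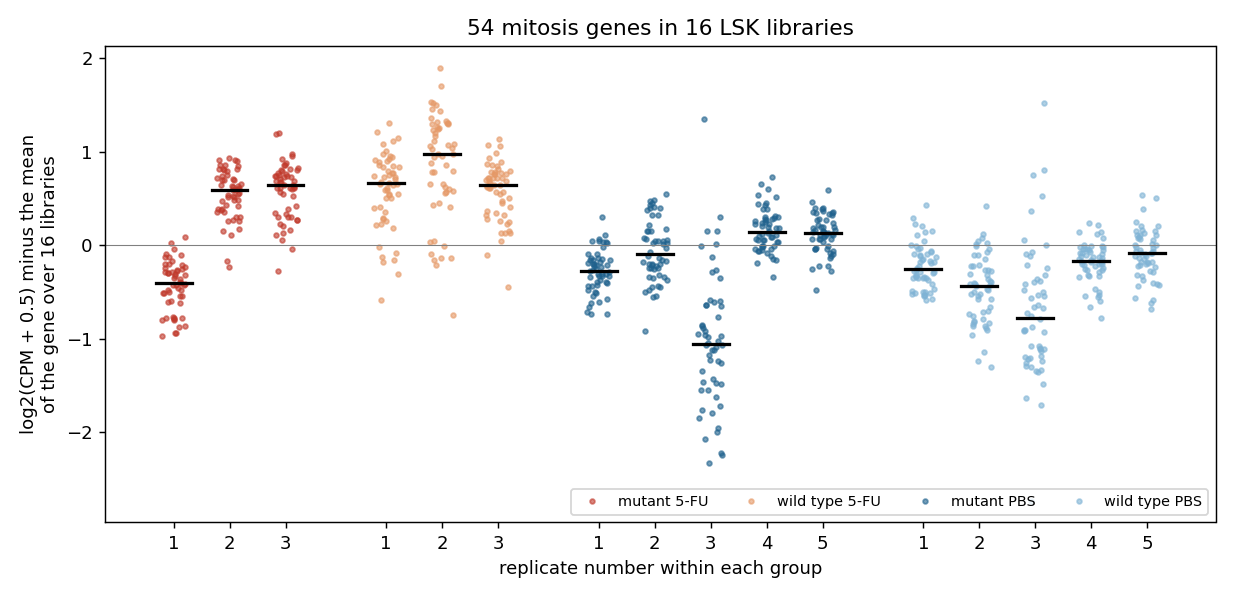
Level of each of the 54 mitosis genes in each library, as log2(CPM + 0.5) minus the gene's mean over the 16 libraries. Points are genes, bars are medians per library, and colours are the groups. Mutant 5-FU replicate 1 lies below the other 5-FU libraries, with a median of -0.41, and mutant PBS replicate 3 is the lowest of all, with a median of -1.05.

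Mutant 5-FU replicate 1 was the lowest of its group for 53 of the 54 genes. WT 5-FU replicate 2 was the highest of its group for 40 genes and the highest of all 16 libraries for 36. Mutant PBS replicate 3, the library with the largest immunoglobulin share, was the lowest of all 16 for 32 genes.

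The first comparison asked how 5-FU changed the mitosis genes in WT LSK cells 10 days on. Of the 54 genes, 30 rose and 0 fell (edgeR quasi-likelihood test, Benjamini-Hochberg adjusted p under 0.05), where 5.55% of all genes tested rose and 9.31% fell. The median log2 fold change of the members was 1.11, with a range from -0.97 (Pttg1) to 1.65 (Kif4), beside a median of -0.11 over all genes. For 43 members every WT 5-FU library stood above every WT PBS library, a pattern seen in 16.0% of all genes. The fold change was above 0 for 52 members, as it was for 45.4% of all genes, and below 0 for Pttg1 and Spc25, whose unadjusted p-values were 0.0557 and 0.798. DESeq2 called 43 members higher and 0 lower, where it called 10.8% of all genes higher. In bulk RNA, more dividing cells and more of these RNAs per cell cannot be told apart.

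The count of 30 depended on single libraries, while the median fold change moved little. It was 3 without WT 5-FU replicate 2, where Ccnb2, Cdc25b and Kif15 were the genes called, 9 without WT 5-FU replicate 1 and 17 without WT 5-FU replicate 3. In these fits 0.85%, 1.38% and 3.15% of all genes were called higher, against 5.55% with every library, so fewer genes were called over the whole table too. The count was 14 without WT PBS replicate 2 and 16 without WT PBS replicate 3, where 2.51% and 3.41% of all genes were called higher. The members' median log2 fold change stayed between 1.00 and 1.16 over these and the other fits that leave out 1 WT library.

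Libraries of sorted cells held transcripts of other cell types, many of which fell with 5-FU in WT cells while the mitosis genes rose. Of 12 plasma cell markers 10 fell with 5-FU in WT cells, and their summed level was 350 to 2250 CPM in WT 5-FU against 36200 to 585000 CPM in WT PBS. Of 10 B cell markers 8 fell (188 to 283 CPM in WT 5-FU, 426 to 1620 in WT PBS), and Pax5 and Fcmr were at 0 counts in all WT 5-FU libraries. Of 10 T and NK cell markers 7 fell (0.608 to 0.772 CPM in WT 5-FU, 8.75 to 25.9 in WT PBS), with Cd3e, Cd3g and Cd8a at 0 in WT 5-FU. Of 10 neutrophil markers 6 fell (248 to 3410 CPM in WT 5-FU, 5250 to 25000 in WT PBS), with Ly6g at 0 in WT 5-FU, as did 6 of 10 erythroid markers (101 to 270 CPM in WT 5-FU, 399 to 1300 in WT PBS), with Slc4a1 at 0 in WT 5-FU, and 5 of 10 monocyte and macrophage markers (38.6 to 160 CPM in WT 5-FU, 465 to 7820 in WT PBS). A further erythroid marker, the erythropoietin receptor Epor, rose (0.99 ± 0.31, adjusted p = 0.0422, edgeR). Of the 8 mast cell and basophil markers 6 were tested, of which 1 rose and 1 fell (54.3 to 84.4 CPM in WT 5-FU, 52.7 to 164 in WT PBS). Prss34 was at 0 in WT 5-FU and Cma1 and Tpsb2 were at 0 in both WT groups. The summed levels of all lists are over the markers tested. Of 12 gate and stem cell genes 2 rose in WT cells, Slamf1 (3.11 ± 0.23, adjusted p = 2.17e-06, edgeR) and Mecom. Flt3 fell there (-1.78 ± 0.26, adjusted p = 0.000791). In mutant cells 1 of the 12 rose with 5-FU, Slamf1, and 2 fell, Cd34 and Flt3. The part of other cell types, or of changes within the LSK gate, in the rise of the mitosis genes was not tested.

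Immunoglobulin share and the members' level also differed among PBS libraries of 1 genotype. In mutant PBS, replicates 5 and 4, with immunoglobulin shares of 3.668 and 12.18%, had member medians of 71.4 and 78.0 CPM, and replicate 3, with 50.17%, had 26.7 CPM. In WT PBS, replicate 5, with 6.373%, had 61.9 CPM and replicate 3, with 44.24%, had 36.5 CPM. The mutant 5-FU libraries 3 and 2, with 5.689 and 16.9%, had 99.3 and 95.9 CPM, above every PBS library at any share. Mutant 5-FU replicate 1, with 26.57%, had 43.4 CPM, below WT PBS replicate 4, with 25.24% and 59.8 CPM. With the log2 of this share as a covariate, 0 members were called in WT cells and the median turned to -0.43, and over all genes 5 were called higher and 17 lower. WT 5-FU and WT PBS libraries do not overlap in this share, so it cannot be told apart from treatment there.

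**Figure D3:**
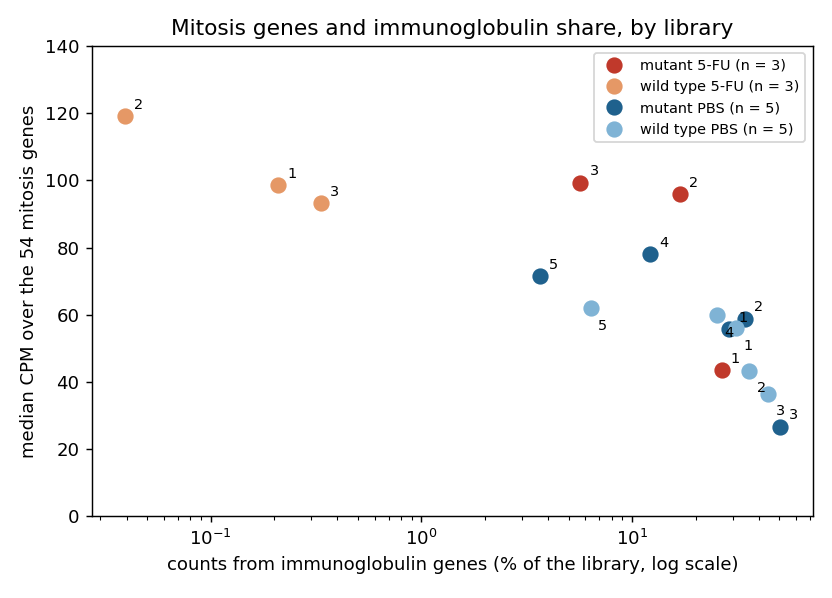
Median CPM over the 54 mitosis genes against the share of counts from immunoglobulin genes (log scale), 1 point per library, with replicate numbers. WT 5-FU libraries hold shares of at most 0.3324% that no PBS library reaches, and mutant 5-FU replicates 2 and 3 lie at 95.9 and 99.3 CPM, above the PBS libraries.

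Genes of the CDK1 engine rose in WT cells for 5 of 7 members. Ccnb1, a B-type cyclin, stood at 187, 227 and 228 CPM in WT 5-FU libraries, against 113, 128, 60.0, 90.3 and 100 CPM in WT PBS libraries. Ccnb2, the other B-type cyclin, stood at 184, 181 and 191 CPM in WT 5-FU, against 94.2, 101, 87.1, 83.9 and 90.9 CPM in WT PBS. Neither gene's groups overlapped. The log2 fold change was 1.12 ± 0.32 (SE, adjusted p = 0.0319, edgeR) for Ccnb1 and 1.02 ± 0.2 (adjusted p = 0.00522) for Ccnb2. Cdc25b, a phosphatase that removes the inhibitory phosphates from CDK1, was at 44.9, 52.0 and 40.2 CPM in WT 5-FU, against 23.6, 14.5, 14.0, 24.5 and 24.8 CPM in WT PBS, a log2 fold change of 1.17 ± 0.23 (adjusted p = 0.00522). Ccna2 (cyclin A2) and Cdc25c rose too; the product of Cdc25c is a further phosphatase of CDK1.

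Cdk1, the kinase itself, did not pass the test. Its level was 115, 125 and 147 CPM in WT 5-FU and 99.7, 127, 131, 91.2 and 85.1 CPM in WT PBS, and the groups overlapped. The log2 fold change was 0.28 ± 0.23 (adjusted p = 0.394, edgeR). Cdca3, which promotes the loss of the CDK1 inhibitor Wee1, had a log2 fold change of 0.16.

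Among the mitotic kinases, Plk1 and Nek2 rose and Aurka did not pass. Plk1, which acts on centrosomes, kinetochores and the cleavage furrow, was at 94.7, 126 and 121 CPM in WT 5-FU, against 44.9, 46.6, 25.9, 60.7 and 52.9 CPM in WT PBS. Every WT 5-FU library was above every WT PBS library, with a log2 fold change of 1.3 ± 0.41 (adjusted p = 0.044, edgeR).

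Of the 9 checkpoint and anaphase genes 4 rose: Bub1b, Bub1, Sgo1 and Cdc20. Bub1b, part of the complex that restrains the anaphase-promoting complex, was at 178, 241 and 177 CPM in WT 5-FU, against 58.7, 42.7, 45.4, 92.4 and 93.3 CPM in WT PBS. Its log2 fold change of 1.58 ± 0.44 (adjusted p = 0.0268, edgeR) was the largest of this group. Cdc20, the activator that the checkpoint restrains, was at 171, 189 and 194 CPM in WT 5-FU, against 98.7, 103, 52.2, 105 and 103 CPM in WT PBS, a log2 fold change of 1.00 ± 0.32 (adjusted p = 0.0453).

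The other 5 genes of this group did not pass the test. Pttg1 (securin), the inhibitor of separase that is destroyed at anaphase, was at 26.5, 23.7 and 29.3 CPM in WT 5-FU and 32.5, 53.8, 116, 31.7 and 25.9 CPM in WT PBS. The groups overlapped, and WT PBS replicate 3 was far above the others. The log2 fold change of Pttg1 was -0.97 ± 0.47 (adjusted p = 0.145, edgeR). Ube2c, the ubiquitin-conjugating enzyme of the anaphase-promoting complex, had a log2 fold change of 0.01, Bub3 of 0.05 and Mad2l1 of 0.31. Ttk, the kinase that starts checkpoint signalling, did not pass either.

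In the chromosomal passenger complex, Incenp and Cdca8 (borealin) rose, and Aurkb and Birc5 (survivin) did not pass. Aurkb, its kinase, was at 125, 148 and 145 CPM in WT 5-FU and 85.9, 90.5, 44.8, 80.8 and 85.7 CPM in WT PBS. The groups did not overlap, but the log2 fold change of 0.84 ± 0.32 had an adjusted p of 0.0749 (edgeR). In the centromere and kinetochore group, 1 of 6 members rose, the kinetochore motor Cenpe. Ndc80, which binds microtubules at the kinetochore, was at 52.8, 55.7 and 54.5 CPM in WT 5-FU and 35.7, 23.6, 9.43, 32.2 and 30.0 CPM in WT PBS. Its groups did not overlap either, and its adjusted p of 0.0503 stood just outside the threshold, with a log2 fold change of 1.05 ± 0.34. Cdc20, at 0.0453, was the last member inside it.

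Of the 8 kinesins 5 rose, among them the member with the largest fold change (Kif4, 1.65): Kif4, Kif2c, Kif15, Kif11 and Kif20b. Kif11, which pushes the spindle poles apart, was at 132, 198 and 111 CPM in WT 5-FU, against 55.3, 40.0, 43.4, 66.0 and 78.1 CPM in WT PBS, a log2 fold change of 1.38 ± 0.33 (adjusted p = 0.0147, edgeR). Kif15, which can share this work, was at 71.5, 87.2 and 59.8 CPM in WT 5-FU, against 25.1, 24.1, 25.4, 30.1 and 34.6 CPM in WT PBS, a log2 fold change of 1.39 ± 0.28 (adjusted p = 0.00529). Neither gene's groups overlapped. Kif23, a motor of the central spindle, was at 62.9, 79.6 and 65.4 CPM in WT 5-FU and 69.5, 35.3, 39.0, 60.9 and 75 CPM in WT PBS, which overlap, with a log2 fold change of 0.31.

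Of the spindle assembly genes 3 of 5 rose (Tpx2, Ckap2 and Hmmr). Tpx2, which nucleates microtubules near chromosomes and activates Aurora A, was at 143, 191 and 139 CPM in WT 5-FU, against 51.3, 43.9, 49.3, 72.6 and 77.5 CPM in WT PBS, a log2 fold change of 1.42 ± 0.38 (adjusted p = 0.0239, edgeR). Of the cytokinesis genes 3 of 4 rose, Ect2, Anln and Prc1. Prc1, which bundles the microtubules of the central spindle, was at 135, 187 and 139 CPM in WT 5-FU, against 67.1, 45.1, 32.7, 79.8 and 84.9 CPM in WT PBS. The groups were apart for both Tpx2 and Prc1, and the log2 fold change of Prc1 was 1.31 ± 0.4 (adjusted p = 0.0392).

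Of the chromosome structure genes 5 of 8 rose: the condensin subunits Ncapd2, Ncapg and Smc2, the phosphatase targeting subunit Cdca2, and Top2a. Top2a, which untangles sister chromatids, was at 329, 457 and 264 CPM in WT 5-FU, against 169, 134, 155, 177 and 212 CPM in WT PBS, a log2 fold change of 1.05 ± 0.28 (adjusted p = 0.0226, edgeR). Mki67, the protein that coats mitotic chromosomes and is used to mark cycling cells, was at 130, 179 and 92.9 CPM in WT 5-FU and 70.4, 56.8, 85.1, 75.9 and 111 CPM in WT PBS. Its groups overlapped, with a log2 fold change of 0.75 ± 0.29 (adjusted p = 0.0814).

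**Figure D4:**
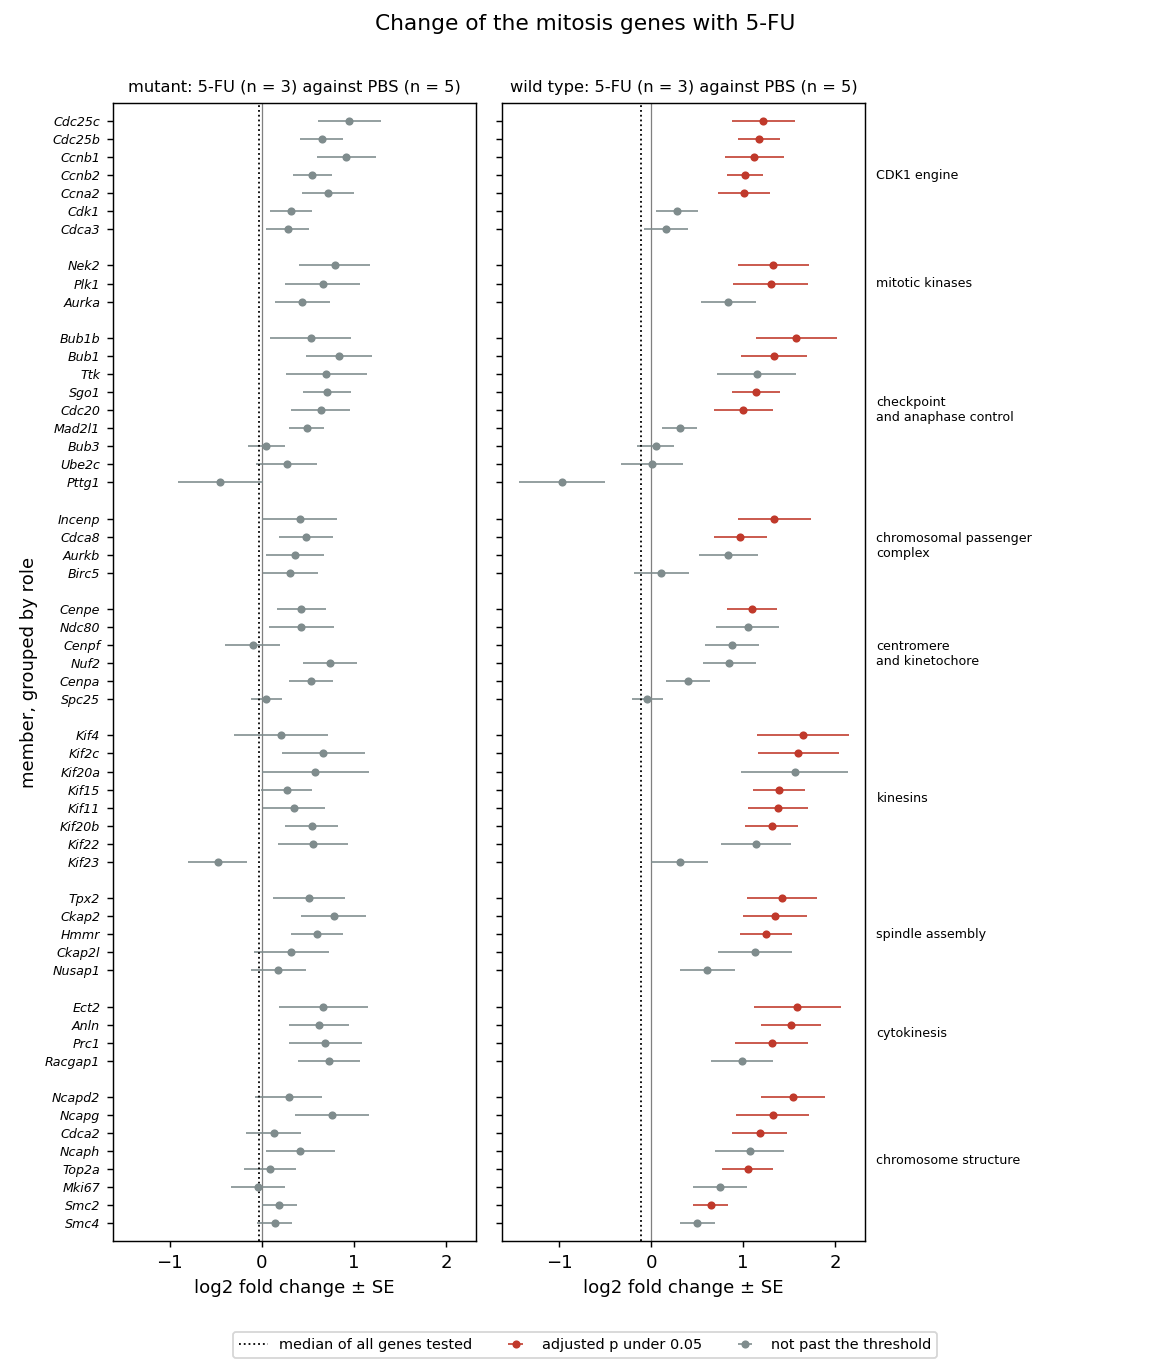
Log2 fold change with 5-FU of each mitosis gene, with its SE, in mutant cells (left) and WT cells (right), both 3 libraries against 5. Genes are grouped by role, red marks an adjusted p under 0.05, and the dotted line is the median of all genes tested. In WT cells 30 genes are red, and in mutant cells none is, while most fold changes there lie between 0 and 0.95.

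The second comparison asked the same of mutant cells. Of the 54 genes 0 were called by edgeR, 13 had an unadjusted p under 0.05, and DESeq2 also called 0. Over all genes, 0.837% rose and 1.36% fell. The members' median log2 fold change was 0.48 (range -0.48 for Kif23 to 0.95 for Cdc25c), beside -0.03 over all genes, and 50 members had a fold change above 0, as did 47.5% of all genes. The 3 genes with the smallest p-values belonged to the CDK1 engine. Ccnb1 was at 106, 232 and 305 CPM in mutant 5-FU and 116, 133, 55.7, 137 and 124 CPM in mutant PBS, a log2 fold change of 0.92 ± 0.32 (adjusted p = 0.192, edgeR). Cdc25b was at 24.5, 39.9 and 43.3 CPM in mutant 5-FU and 19.7, 24.0, 21, 26.7 and 22.9 CPM in mutant PBS, a log2 fold change of 0.65 ± 0.23 (adjusted p = 0.211). The third was Cdc25c, at 0.95 ± 0.34 (adjusted p = 0.212). In both genes given by library, replicates 2 and 3 stood above every PBS library and replicate 1 did not.

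That split held across the list. Mutant 5-FU replicate 2 exceeded all 5 mutant PBS libraries for 40 of the 54 genes and replicate 3 for 41, where 19.8% and 18.5% of all genes did so. For replicate 1 the count was 0 of 54, where 15.2% of all genes did so. In WT cells, replicates 1 to 3 exceeded all 5 WT PBS libraries for 45, 46 and 45 members, where 25.3%, 29.4% and 22.8% of all genes did so. Without mutant 5-FU replicate 1 the members' median was 0.71 and 1 gene, Hmmr, was called. Limma-voom with sample quality weights, which gives a deviating library less weight, called 12 members higher in mutant cells, with a median of 0.62, and 4.22% of all genes. Replicate 1 held the largest immunoglobulin share of the mutant 5-FU libraries, and whether that bears on its level was not tested.

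Plk1 was at 42.6, 107 and 149 CPM in mutant 5-FU and 54.9, 54.1, 21.9, 98.5 and 85.6 CPM in mutant PBS. Bub1b was at 43.6, 136 and 131 CPM in mutant 5-FU and 55.9, 59.0, 24.3, 114 and 106 CPM in mutant PBS. Cdk1 was at 107, 176 and 210 CPM in mutant 5-FU and 118, 184, 115, 119 and 122 CPM in mutant PBS. All 3 showed a low replicate 1 and overlapping groups. Cdc20 (98.3, 190 and 229 CPM in mutant 5-FU, 104, 125, 50, 144 and 130 in mutant PBS) and Prc1 (60.0, 147 and 142 CPM in mutant 5-FU, 72.3, 65.0, 24.2, 96.1 and 103 in mutant PBS) had the same form. Aurkb was at 63.6, 141 and 167 CPM in mutant 5-FU and 87.3, 129, 49.4, 115 and 102 CPM in mutant PBS, and Ndc80 at 25.8, 46.2 and 46.4 CPM in mutant 5-FU and 26.5, 27.9, 16.3, 39.0 and 36.8 CPM in mutant PBS. Kif11 was at 38.0, 97.0 and 93.4 CPM in mutant 5-FU and 59.4, 47.7, 33.5, 79.9 and 78.2 CPM in mutant PBS, and Tpx2 at 44.5, 129 and 121 CPM in mutant 5-FU and 55.3, 71.4, 24.7, 93.9 and 101 CPM in mutant PBS. Mki67 differed: 49.4, 91.5 and 93.4 CPM in mutant 5-FU lay within the 70.0, 67.0, 54.5, 99.5 and 110 CPM of mutant PBS apart from replicate 1, with a log2 fold change of -0.04 ± 0.29.

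The genotypes were compared after 5-FU. Of the 54 genes 0 were called by edgeR and 9 had an unadjusted p under 0.05, while DESeq2 called 1 lower (Top2a) and limma-voom with quality weights called 3 higher and 11 lower. Over all genes, DESeq2 called 5.01% higher and 2.92% lower, limma-voom 17.8% higher and 13% lower. By edgeR, 1.49% of all genes were higher and 0.461% lower in mutant 5-FU than in WT 5-FU. The members' median log2 difference was -0.36, from -1.31 (Kif4) to 0.55 (Pttg1), beside 0.07 over all genes. All mutant 5-FU libraries stood below all WT 5-FU libraries for 19 members and above them for Pttg1 alone, where 18.0% and 21.5% of all genes did so. Top2a was at 111, 233 and 208 CPM in mutant 5-FU and 329, 457 and 264 CPM in WT 5-FU, without overlap, a log2 difference of -0.93 ± 0.32 (adjusted p = 0.147, edgeR). Kif15 was at 20.8, 54.9 and 40.3 CPM in mutant 5-FU and 71.5, 87.2 and 59.8 CPM in WT 5-FU, also without overlap (-0.91 ± 0.32, adjusted p = 0.151). Cenpf, a large kinetochore protein, was at 16.2, 34.0 and 29.2 CPM in mutant 5-FU and 47.7, 72.1 and 33.4 CPM in WT 5-FU, which overlap (-0.95 ± 0.34, adjusted p = 0.155).

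By role, the difference between genotypes after 5-FU was uneven. The median log2 difference was -0.79 for kinesins, -0.62 for chromosome structure, -0.58 for cytokinesis and -0.54 for spindle assembly. It was -0.19 for the mitotic kinases, -0.17 for the centromere and kinetochore, -0.13 for the CDK1 engine, -0.13 for the passenger complex and -0.10 for checkpoint and anaphase control. No test was made between the roles, and these medians are not adjusted for transcript length. Over all 54 members, Pearson's r between log2 length and this difference was -0.74. After the length trend was removed, as described below, it was -0.19. Ccnb1 and Ccnb2 differed between the genotypes by 0.01 ± 0.37 and -0.19 ± 0.23 on the log2 scale (adjusted p = 0.989 and 0.654).

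Markers of other cell types also differed between the genotypes after 5-FU. Of 12 plasma cell markers 7 were higher in mutant 5-FU (edgeR), and their summed level was 33600 to 209000 CPM in mutant 5-FU against 350 to 2250 CPM in WT 5-FU. Of 10 B cell markers 5 were higher (378 to 603 CPM in mutant 5-FU, 188 to 283 in WT 5-FU). Among these 5 was Fcmr, which was at 0 counts in WT 5-FU. Pax5, also at 0 counts in WT 5-FU, was at 0, 0 and 0.0304 CPM in mutant 5-FU replicates 1 to 3. In replicate 3 a level of 0.0911 CPM equals 3 counts, so Pax5 was near 0 in both groups. Of 10 T and NK cell markers, 9 of them tested, 3 were higher (6.6 to 18.2 CPM in mutant 5-FU, 0.608 to 0.772 in WT 5-FU), with Cd3e and Cd8a at 0 in both groups. Of 10 monocyte and macrophage markers 2 were higher (531 to 944 CPM in mutant 5-FU, 38.6 to 160 in WT 5-FU), and of 10 erythroid markers 1, the globin gene Hba-a1 (273 to 503 CPM in mutant 5-FU, 101 to 270 in WT 5-FU). None of the 10 neutrophil markers was called by edgeR (189 to 426 CPM in mutant 5-FU, 248 to 3410 in WT 5-FU). Nor was any of the 6 mast cell and basophil markers tested. Their summed level was 37.3 to 103 CPM in mutant 5-FU and 54.3 to 84.4 in WT 5-FU. No marker on these 7 lists was lower. Prss34 was at 0 in both groups. Of 12 gate and stem cell genes 0 were higher and 2 lower in mutant 5-FU, Cd34 and Flt3 (-2.56 ± 0.29, adjusted p = 0.00107, edgeR). The part of other cell types, or of changes within the LSK gate, in the genotype differences of the mitosis genes was not tested.

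Under PBS, mutant and WT cells were compared as a baseline. No member passed the edgeR test, 0 had an unadjusted p under 0.05, and DESeq2 and limma-voom also called 0. Of all genes 0.0182% were higher and 0 genes were lower in mutant PBS. The median log2 difference of the members was 0.14, from -0.13 to 0.45, and the median SE was 0.28. The 3 smallest p-values belonged to Spc25 (0.24 ± 0.15), Cdca8 (0.40 ± 0.26) and Ccnb2 (0.28 ± 0.18), all with an adjusted p of 1.00 (edgeR).

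Whether the 5-FU response itself depended on genotype was tested with the interaction term. It called 0 members by edgeR, DESeq2 and limma-voom, and 6 had an unadjusted p under 0.05. Of all genes 0.558% had a more positive change with 5-FU in mutant than in WT cells and 0.0303% a more negative one. A more positive change can be a smaller fall. The members' median was -0.55, from -1.44 (Kif4) to 0.52 (Pttg1), beside 0.07 over all genes. Kif15 had the smallest p (-1.12 ± 0.4, adjusted p = 0.275), followed by Cdca2 (-1.05 ± 0.43, 0.362) and Ncapd2 (-1.25 ± 0.51, 0.369), by edgeR. A response in WT cells and none in mutant cells is thus not shown to differ. The 3 comparisons that involve WT 5-FU share its libraries.

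Transcript length moved with these results. Effective lengths were averaged over libraries, and the members were split at their median of 2526 bases. In WT cells, 12 of the 27 shorter members rose with 5-FU (median log2 fold change 0.85) and 18 of the 27 longer ones (median 1.25), where 2.51% of all shorter genes and 10.4% of all longer genes rose. The medians of all shorter and all longer genes were -0.38 and 0.31. Among the 27 shorter members, Pearson's r between log2 length and fold change was 0.78, a description across genes that share libraries. Pttg1, with an effective length of 648 bases, had the lowest fold change and is the shortest member. In the genotype comparison after 5-FU, 15 of the 27 longer members and 4 of the 27 shorter ones lay below WT in every library, where 33.8% of all longer and 8.06% of all shorter genes did so.

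After the trend of counts with length was removed from each library, 40 of 54 members rose in WT cells, 20 of 27 shorter and 20 of 27 longer ones, where 5.72% of all genes rose. The median was 0.89 and the range -0.09 to 1.46. Cdk1 then passed the test, at 0.73 ± 0.22 (adjusted p = 0.0319, edgeR), and Ube2c was at 0.64 ± 0.23 (adjusted p = 0.0661). Pttg1 was at -0.05 ± 0.17 (adjusted p = 0.859), Kif23 at 0.50 ± 0.37 and Mki67 at 0.49 ± 0.23. In mutant cells the median was 0.48 and 0 members were called. The genotype difference after 5-FU had a median of -0.24 and the interaction a median of -0.43, with 0 members called in both.

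**Figure D5:**
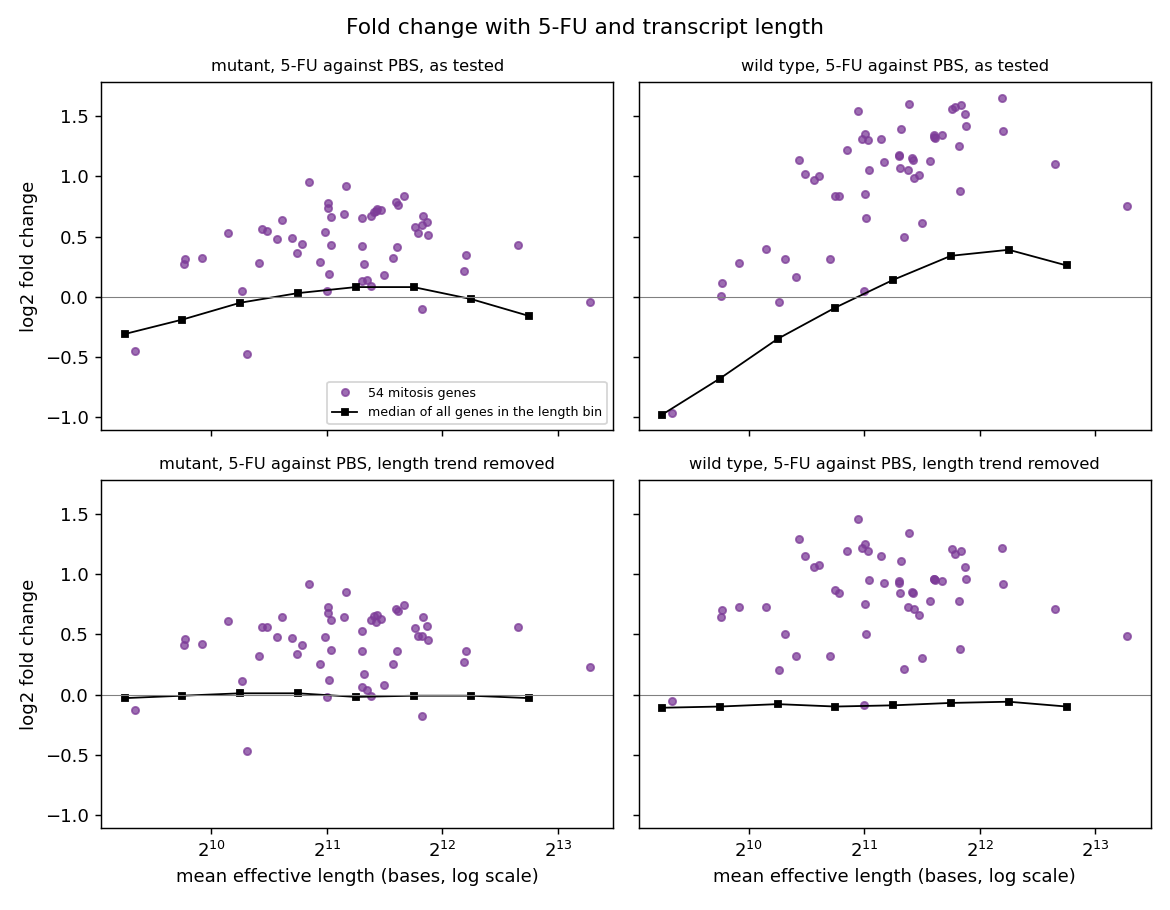
Log2 fold change with 5-FU against mean effective transcript length (log scale) in mutant (left) and WT cells (right), as tested (top) and after the length trend was removed (bottom). Purple points are the 54 mitosis genes and black squares the median of all genes in each length bin. In WT cells the black line climbs with length in the upper panel and is level in the lower one, where the members' median is 0.89.

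Levels between genes were compared per length, as TPM (transcripts per 1000000) of the deposited tables. In WT 5-FU cells the most abundant members were Cdk1 (307 ± 22.6 TPM), Birc5 (298 ± 28.7), Ube2c (287 ± 31.2), Ccnb2 (287 ± 20.6) and Cenpa, the centromeric histone H3 (262 ± 15.1 TPM, SD, n = 3). The SDs of these neighbours in the order overlap. At the low end were Mki67 (30.5 ± 12.6 TPM), Kif4 (28.9 ± 13.9), Cenpf (26.0 ± 8.23) and Cenpe (20.1 ± 6.04 TPM), whose ranges also overlap. In WT PBS cells the level of Cdk1 was 92.7 ± 48.1 TPM, of Birc5 97.1 ± 32.4 TPM and of Cenpe 4.46 ± 2.43 TPM (n = 5). TPM is a share of all transcripts, immunoglobulin included: on log2(TPM + 1) the median of all genes shifted by 1.01 between WT 5-FU and WT PBS, and that of the members by 2.42.

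The members varied together over the 16 libraries. Across the 1431 pairs of members the median Pearson's r of log2 CPM was 0.83, and 128 pairs had r below 0. The libraries fall into groups and share depth and immunoglobulin share, so this is a description. Within the PBS libraries, taken as deviations from the group means, the median r was 0.73. Pttg1 had the lowest mean r with the others in both sets, -0.59 and -0.62. Ccna2 had the highest mean r over all libraries, 0.77.

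Genes around the members in the same pathway were given by list, each gene called over all genes tested. With 5-FU, 5.55% of all genes rose in WT cells and 0.837% in mutant cells. Of 19 regulators of mitotic genes 6 rose with 5-FU in WT cells, and E2f7 had the smallest p (1.70 ± 0.36, adjusted p = 0.00769, edgeR). Foxm1 and Mybl2, transcription factors that activate mitotic genes and are named here for that role after their values were seen, were among them. Foxm1 was at 22.5, 42.1 and 39.7 CPM in mutant 5-FU, 50.4, 72.0 and 44.9 in WT 5-FU, 24.2, 21.5, 14.2, 54.9 and 32.4 in mutant PBS and 21.5, 11.4, 19.9, 32.4 and 33.4 CPM in WT PBS. Its log2 fold change with 5-FU was 0.24 ± 0.39 in mutant (adjusted p = 0.871) and 1.23 ± 0.39 in WT cells (adjusted p = 0.0446). Mybl2 was at 40.0, 79.9 and 91.7 CPM in mutant 5-FU, 95.6, 111 and 112 in WT 5-FU, 35.6, 45.2, 18.4, 70.3 and 54.7 in mutant PBS and 46.7, 24.6, 17.1, 39.4 and 47.9 CPM in WT PBS. Its log2 fold change was 0.65 ± 0.39 in mutant (adjusted p = 0.533) and 1.60 ± 0.38 in WT cells (adjusted p = 0.014). In both, mutant 5-FU replicate 1 was again the lowest of the 5-FU libraries.

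Of 19 other spindle and cytokinesis genes 9 rose in WT cells (median log2 fold change 1.01; Arhgap11a first, 1.58 ± 0.35), as did 6 of 29 other centromere and kinetochore genes (median 0.42; Knl1, 1.08 ± 0.25). Of 12 other genes of mitotic entry 3 rose (Bora, an activator of Aurora A and Plk1, first), of 18 genes of the anaphase-promoting complex and its regulators 3 (Anapc1 first), and of 9 cohesin and further condensin genes 3 (Ncapg2 first). Of 36 DNA replication genes 8 rose, with a median of 0.64 and Pole, the catalytic subunit of DNA polymerase epsilon, first (1.29 ± 0.28, adjusted p = 0.00868). None of the genes on these 7 lists fell in WT cells by edgeR. In mutant cells 1 of the 106 genes on the 6 mitotic lists and 0 of 36 DNA replication genes rose, near the 0.837% of all genes that did. That gene was Bora, at 58.1, 88.0 and 98.9 CPM in mutant 5-FU, above the 38.3, 54.9, 23.6, 44.6 and 44.6 CPM of mutant PBS in every library (0.99 ± 0.24, adjusted p = 0.0443, edgeR). In both genotype comparisons and the interaction 0 genes on these lists were called by edgeR.

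Counts of 7 members are uncertain because over 10% of their annotated exon bases are shared with another gene and no source says that counting used strand: Kif20a (29.3%, Cdc23), Ube2c (22.8%, Tnnc2), Kif4 (15.1%), Ncapg (13.4%), Cdc25c (12.7%), Ccna2 (12.5%) and Prc1 (11.1%). Ccnb1, Ccnb2 and Kif4 also have near-identical pseudogenes that could take some of their reads.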

How the data were processed

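RNA was sequenced in 16 samples of sorted LSK cells. Per the labels' protocols, RNA was extracted with RNeasy Micro and libraries were made with NuGEN Ovation Ultralow. Per the submitters' processing notes, FastQC 0.11.2 and RSEM 1.3.1 were used with mm10/GRCm38, while aligner and annotation release were not given in these sources. The deposited RSEM tables hold, per the file headers, expected counts, TPM, FPKM, which was not used, and the length and effective length of each gene. Expected counts were rounded, filtered (filterByExpr, minimum count 10), scaled by TMM and fitted in edgeR 4.0.16 (R 4.3.3) with 1 mean per group over all 16 samples, robust quasi-likelihood tests and Benjamini-Hochberg adjustment over 16482 genes. CPM is the count per 1000000 of TMM-scaled library size. 

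Alternatives were other scalings, filters and tools (DESeq2 1.42.0, limma 3.58.1 on voom weights or on log2(TPM + 1)), the length trend removed (lowess, span 0.3), covariates or blocks for replicate number, codes and immunoglobulin share, and leaving out each library. The tests were tried on simulated data. The members and lists were chosen with earlier results of these data known. Values in every sample are given for 12 representatives of the roles, and fold changes for the 3 members with the smallest p in each comparison and for representatives past the threshold. Other members with a value were named after their values were seen. Replicate numbers may pair the PBS groups, though no label states a pairing. Same-numbered deviations from group means correlated at 0.165, 0.243, 0.494, 0.342 and 0.569, and different numbers were not correlated for comparison. Immunoglobulin share was also highest in replicate 3 and lowest in replicate 5 of both PBS groups. With replicate number as a block 0 members were called between these groups. In the other comparisons not every pair exceeded 0.1.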

Additional observations from a re-analysis of the deposited data

Results flagged for a closer look

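Of 26 groups of 5 PBS values checked, 4 held a library far from the others by Dixon's criterion (gap over range above 0.71), which chance does for about 1 in 20. The groups share PBS libraries and the members varied together there, so they are not independent. Their count cannot be read against that rate. Ccnb1 was at 55.7 CPM in mutant PBS replicate 3, the lowest of its group. Cdk1 was at 184 CPM in mutant PBS replicate 2, the highest of its group. Cdc20 and Aurkb were at 52.2 and 44.8 CPM in WT PBS replicate 3, in both the lowest of the group. Replicate 3 of both PBS groups held the largest immunoglobulin share of its group, 50.17% in mutant and 44.24% in WT. Its part in these values was not tested. Without both of these libraries, an alternative chosen after seeing the data, 42 members (median 1.00) and 9.01% of all genes rose with 5-FU in WT cells, and 0 members in mutant cells (median 0.29).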

How the results depend on the processing

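The direction of the members' median kept its sign in all 5 comparisons except with code writing as a covariate, where mutant against WT after 5-FU was 0.03, and with log2 immunoglobulin share as a covariate, where it was -0.43 for 5-FU in WT, 0.92 for mutant against WT after 5-FU and 0.87 for the interaction. With that share as a covariate, 0 members were called in WT (over all genes, 5 higher and 17 lower), and the fold changes of Kif15 (-0.12), Ccnb1 (-0.0016), Plk1 (-0.93), Cdc20 (-0.33), Bub1b (-1.12), Kif11 (-0.87), Tpx2 (-0.83), Prc1 (-1.03) and Top2a (-0.59) turned negative there. So did, to positive, Top2a (0.53), Kif15 (0.43) and Cenpf (0.77) between genotypes after 5-FU and Kif15 (0.32), Cdca2 (0.61) and Ncapd2 (0.98) in the interaction. This share does not overlap between WT 5-FU and the other groups.

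For 5-FU in WT, log2(TPM + 1) gave 52 members higher (median 2.42; 42.0% of all genes) and code writing as a covariate 7 (0.81; 1.37%). Among libraries whose codes lack the zero, 35 rose (0.87; 3.34%), and among those of 1 code prefix (WT 5-FU replicate 3, WT PBS replicates 4 and 5) 2 rose, Ccnb1 and Ccnb2 (0.77; 0.461%), with lone samples assumed to vary like the other groups. These within-code fits were chosen after seeing the data. Leaving out single libraries gave 3 to 36. In mutant cells, 12 rose by limma-voom with quality weights (4.22% of all genes), 3 with code writing (Cdc25b, Ckap2 and Sgo1; 2.66%) and 0 to 1 leaving out single libraries, and within leading-zero codes 0 rose (median 0.73), as within the code prefix shared by mutant 5-FU replicates 1 to 3 and mutant PBS replicates 1 and 2 (0.57). Between genotypes after 5-FU, DESeq2 called 1 lower (2.92% of all genes), limma-voom 3 higher and 11 lower (17.8% and 13%), and a fit of these groups alone 3 lower (Ect2, Kif23 and Ncapd2; 6.87%). On log2(TPM + 1) that median was -1.28 and the interaction median -1.51. All genes shifted by -0.59 and -0.68 there. The cause of these changes was not tested.

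With the replicate block, 43 members rose and 1 fell (Pttg1) in WT, 4 rose in mutant cells (Ckap2, Kif2c, Racgap1 and Sgo1) and 3 were lower in mutant 5-FU than in WT 5-FU (Cenpf, Kif15 and Ncapd2). Over all genes the block called 21.2% higher and 23.2% lower in WT, 3.22% higher in mutant cells and 4.17% lower between genotypes. Same-numbered correlations in these comparisons ran from -0.158 to 0.168, so the numbers are not shown to pair these samples. Between the PBS groups the block called 0 members, and 0.0182% of all genes higher.

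With 3 libraries in each 5-FU group, the SE of a member's log2 fold change with 5-FU was 0.17 to 0.58, and the smallest fold change called in WT was 0.65 (Smc2).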
